A study of Homo sapiens with 6 samples.

Results

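Chemokines and their receptors were examined in AC16 cells, a human line labelled as cardiomyocytes and derived from the fusion of adult ventricular cells and fibroblasts transformed by a virus. The members were all genes whose symbol began with CCL, CXCL, CX3CL, CCR, CXCR or CX3CR followed by a digit, and 52 of the 19386 genes in the deposited table met that rule. They comprised 36 ligand genes (22 CCL, 13 CXCL and 1 CX3CL) and 16 receptor genes (9 CCR, 6 CXCR and 1 CX3CR). Messenger RNA was sequenced in 3 libraries of untreated control cells and 3 libraries of cells given 26 mM potassium chloride (KCl), which depolarizes the membrane. All cells were wild type by label and were collected at 16 h, so earlier changes were not measured. The study's title concerns potassium cardioplegia, NRF2 and oxidative stress.

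Chemokines are small secreted proteins that guide the migration of leukocytes and other cells along gradients held on cell-surface heparan sulfate. CC and CXC chemokines differ in the spacing of their first conserved cysteines, and CX3CL1 alone has a wider spacing. Their receptors span the membrane and signal through inhibitory G proteins, mostly in leukocytes. In the heart, fibroblasts, endothelium and muscle cells make chemokines that draw neutrophils and monocytes into injured tissue.

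Library totals ran from 18601977 to 19286588 estimated reads, and a gene with 0 reads in a library could have up to 0.162 CPM (3 reads, 95% limit for counting error only). CPM are counts scaled to a common library size by TMM, a correction for library composition. Markers bore out little of the cardiac label, since 7 of 13 cardiomyocyte markers had at most 3 reads in every library. TNNT2, MYL7, NKX2-5 and NPPA had none. Only 2 of the 13 passed the filter on low counts. In control cells these were ACTN2 at 1.38 ± 0.323 CPM and the cardiac factor gene GATA4 at 43.9 ± 1.60 CPM (mean ± SD, n = 3). Fibroblast markers were abundant, with a summed level of 6248 to 6643 CPM in control and 6676 to 6969 CPM after KCl, and 9 of their 10 genes were higher after KCl, against 20.1% of all tested genes. Of the 10 leukocyte markers in the table, 4 had at most 3 reads in every library, and the pan-leukocyte gene PTPRC was at 1.40 to 2.84 CPM. The leukocyte markers summed to 143.8 to 155.2 CPM in control and 109.8 to 113.3 CPM in KCl, nearly all of it from the lysosomal gene CD68, which fell. The monocyte gene CD14 rose from 1.54 to 2.97 CPM (edgeR adjusted p = 0.00281), and PTPRC was at 1.65 and 2.27 CPM and did not pass. Over the 5 tested leukocyte markers the median log2 change was 0.17. Epithelium markers summed to 266.4 to 277.2 CPM in control and 386.8 to 411.1 CPM after KCl, with 3 of 5 tested genes higher. Most of this sum was KRT18, whose mean went from 217.3 to 333.2 CPM. KRT7 and CDH1 were also higher, while KRT8 and KRT19 did not pass. EPCAM, too low to be tested, went the other way, with control reads of 12, 13 and 8 and KCl reads of 3, 8 and 4. Endothelium markers summed to at most 14.2 CPM. The part of these shifts in the chemokine results was not tested. In bulk RNA, fewer cells of a type and less RNA per cell cannot be told apart.

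Of the 52 members, 14 reached a mean of 10 estimated reads over the 6 libraries. They were 13 ligand genes and the receptor gene CCR10. The same 14 passed the filter on low counts and were tested, and they held 99.4% to 99.7% of the family's reads in each library. The lowest of them was CCL7, with a mean of 10.8 reads, and the highest member below was CCR6, with a mean of 5.21 reads. A further 35 members had at least 1 read and 3 had none, namely CCL1, CCL15 and CXCL17.

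**Figure D1:**
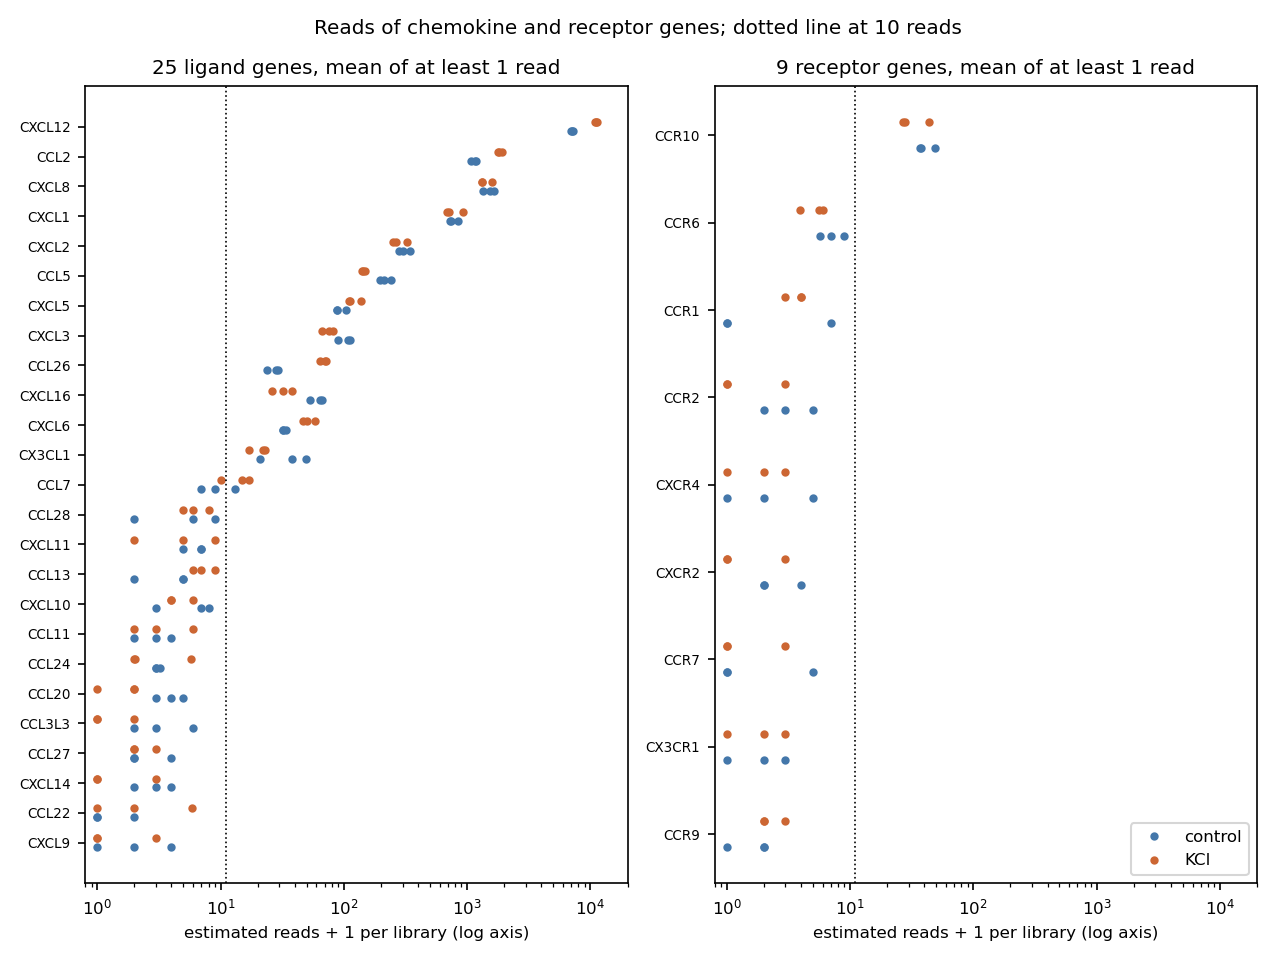
Estimated reads plus 1 per library (log axis) for the 25 ligand genes and 9 receptor genes with a mean of at least 1 read, with 1 point per library, blue for control and orange for KCl. CCR10 is the receptor gene to the right of the dotted line at 10 reads, whereas 13 ligand genes average above it.

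All members together took 0.0572% to 0.0617% of the reads in control and 0.0820% to 0.0850% in KCl. The summed level was 589.7 ± 25.8 CPM in control cells and 858.1 ± 21.3 CPM in KCl. CXCL12 alone made up 61.8% ± 0.972 of the family's reads in control and 69.3% ± 1.27 in KCl, and CCL2 made up 9.91% ± 0.131 and 11.5% ± 0.430. Without CXCL12 and CCL2 the summed level was 167.0 ± 11.7 CPM in control and 164.4 ± 16.4 CPM after KCl, and the groups overlapped. The larger family total in KCl was thus carried by 2 ligand genes.

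The ligand genes CCL26, CCL2, CXCL6, CXCL12 and CXCL5 rose after KCl (5 genes), and CXCL16, CCL5 and CXCL3 fell (3 genes). Together these were 8 of the 14 tested members, against 38.0% of all 13044 tested genes (edgeR quasi-likelihood test, Benjamini-Hochberg adjusted over all tested genes, threshold 0.05). The 5 higher genes were 35.7% of the tested members, against 20.1% of all tested genes, and the 3 lower genes were 21.4%, against 18.0%. The lower share was thus near the background. The same 8 genes were the ones with no overlap between groups (57.1%), against 47.8% of all tested genes. The median log2 fold change was 0.02 over the 14 and -0.005 over all tested genes. Among all genes 52.8% of calls were higher on counts, against 33.3% by limma on log2(FPKM + 1) and 41.1% on log2(TPM + 1), while the members gave 5 higher and 3 lower calls on each of these scales. Against a fold change of at least 1.2 (glmTreat in edgeR) 3 members passed as higher and 2 as lower, where 8.36% of all tested genes passed, and by DESeq2 4 were higher and 2 lower, where 33.1% passed.

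**Figure D2:**
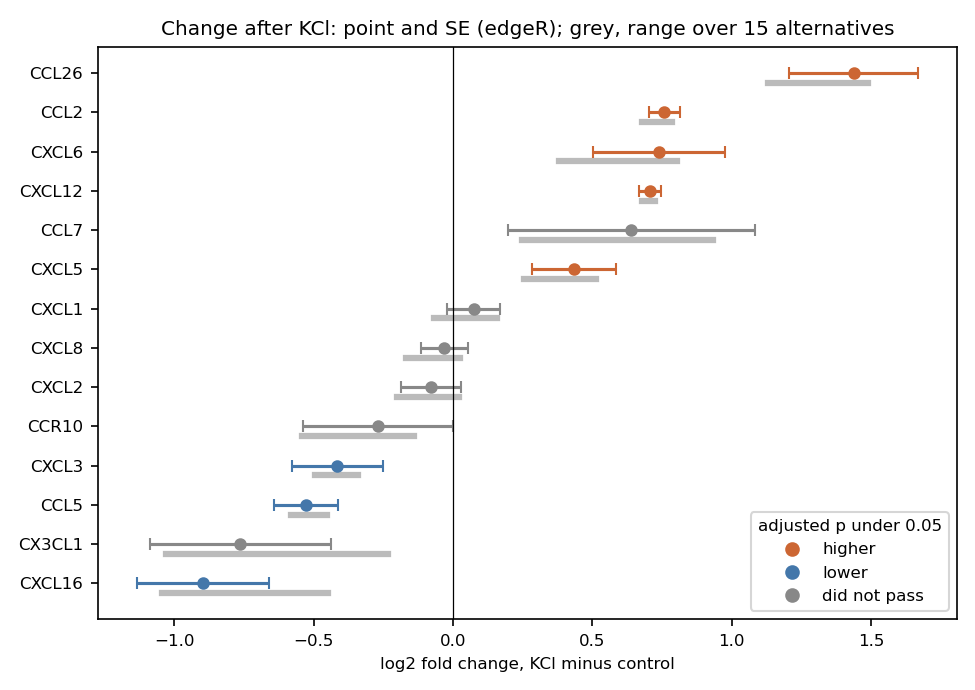
Log2 fold change (KCl minus control) of the 14 tested members, with the SE from edgeR as error bars and a grey line for the range over 15 alternative settings. Orange points passed the test as higher and blue points as lower. The ranges of CXCL1, CXCL2 and CXCL8 cross 0.

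CXCL12, also called SDF-1, is a constitutively made chemokine that retains and recruits progenitor cells and lymphocytes (gene ID 6387, GRCh38 chromosome 10, 44370165 to 44386493, minus strand). It was the most abundant member, at 366.9, 350.6 and 375.3 CPM in the control libraries and 590.1, 584.1 and 610.2 CPM in the KCl libraries. Every KCl library lay above every control library. CXCL12 rose 1.63-fold (0.71 ± 0.04 in log2 units, mean ± SE, edgeR adjusted p = 3.69e-13). Scaled for gene length, its level was 338.0 ± 16.6 TPM in control and 555.1 ± 13.1 TPM in KCl, the highest of the family in both groups.

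CCL2, or MCP-1, is the main attractant of monocytes (gene ID 6347, chromosome 17, 34255218 to 34257203, plus strand). Control libraries held 59.7, 54.9 and 60.8 CPM and KCl libraries 96.3, 96.5 and 104.0 CPM. The groups were far apart relative to their spread, and CCL2 rose 1.69-fold (log2 fold change 0.76 ± 0.05, edgeR adjusted p = 4.61e-11). CCL7, or MCP-3, is a related monocyte attractant whose gene lies next to it (34270221 to 34272242), and the coding sequences of the pair are 79.1% identical. CCL7 had 12, 6 and 8 reads in control and 16, 9 and 14 in KCl, so that its groups overlapped. The log2 change of CCL7, 0.64 ± 0.44, missed the threshold (edgeR adjusted p = 0.270) and ran from 0.43 to 0.93 with 1 library left out, and at this depth a change of the size seen for CCL2 was not detectable for CCL7.

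CCL26, or eotaxin-3, attracts eosinophils and basophils through CCR3 (gene ID 10344, chromosome 7, 75769533 to 75789896, minus strand). It had 23, 28 and 27 reads in control and 63, 71 and 69 reads in KCl, or 1.34 ± 0.145 and 3.63 ± 0.234 CPM. The groups lay far apart relative to their spread. The rise of 2.71-fold (log2 fold change 1.44 ± 0.23, edgeR adjusted p = 2.16e-05) was the largest of the 14 tested members. In TPM, CCL26 stood eighth in the control order, below CCL5 and CXCL3, and sixth in KCl, where its libraries (14.1 to 16.4 TPM) overlapped those of CCL5 (13.2 to 14.4 TPM).

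CCL5, or RANTES, attracts T cells and monocytes (gene ID 6352, chromosome 17, 35871491 to 35880793, minus strand). Its level was 12.3, 10.8 and 10.4 CPM in control and 7.49, 7.70 and 8.01 CPM in KCl. No KCl library reached the lowest control library, and CCL5 fell (log2 change -0.53 ± 0.11, edgeR adjusted p = 0.000701). The estimated reads of CCL5 were not whole numbers, so part of them had been shared with other features before deposit and its own level is uncertain. The same held for 3 low members, CCL22, CCL24 and CCR6. Within a library the ratio of CXCL12 to CCL5 went from 32.8 ± 3.19 in control to 76.9 ± 1.58 in KCl. It was formed after the values were seen, and its shift follows from the rise of CXCL12 and the fall of CCL5.

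CXCL16 and CX3CL1 are made as membrane-anchored chemokines whose soluble forms are released by the proteases ADAM10 and ADAM17. CXCL16, the ligand of CXCR6 (gene ID 58191, chromosome 17, 4733526 to 4739922, minus strand), had 66, 52 and 63 reads in control and 31, 37 and 25 in KCl. Its groups were separate, and it fell (log2 change -0.90 ± 0.24, edgeR adjusted p = 0.00409). In TPM, KCl replicate 2 stood nearest to control, at 2.51 against 2.50 in control replicate 2, and that library also had the lowest number of reads per TPM for CXCL16 (14.7, against 18.3 to 20.8 elsewhere), so the groups overlapped in TPM. Its call held by limma on log2(TPM + 1) (adjusted p = 0.0149). The CXCL16 gene shares 85 exon bases with MED11 on the opposite strand. The libraries were strand-specific by label, but whether the counting used strand is not given in the sources used here.

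CX3CL1, or fractalkine, binds CX3CR1 (gene ID 6376, chromosome 16, 57372458 to 57385048, plus strand). It had 48, 37 and 20 reads in control and 22, 16 and 21 in KCl. Control replicate 3 lay within the KCl range while the other control libraries lay above it. The log2 fold change of -0.76 ± 0.32 did not pass (edgeR adjusted p = 0.0658), but did without control replicate 3 (-1.03, edgeR adjusted p = 0.0145, with 0.0145 to 0.351 over all alternatives). Without control replicate 1 the value was -0.48 (edgeR adjusted p = 0.351). Of the shedding proteases, named after their values were seen, ADAM10 rose by 0.26 ± 0.05 (edgeR adjusted p = 0.000201) and ADAM17 was at 0.01 ± 0.06 and did not pass.

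The CXCL genes that attract neutrophils through CXCR1 and CXCR2 lie together on chromosome 4, in the order CXCL8, CXCL6, CXCL1, CXCL5, CXCL3 and CXCL2 from 73740506 to 74099293 (GRCh38). Inflammatory cytokines are known to induce them through the transcription factor NF-kB. Their promoter windows are shown because the 6 genes share 9 bases there, a form of the sequence that NF-kB binds, while 2 of them rose, 1 fell and 3 did not pass the test. Each window is the coding strand, 5′ to 3′, from RefSeq (build GRCh38.p14), with the bases GGAATTTCC in capitals.
CXCL8: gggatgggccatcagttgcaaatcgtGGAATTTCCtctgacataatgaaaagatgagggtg
CXCL6: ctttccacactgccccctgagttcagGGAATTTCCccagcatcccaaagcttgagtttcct
CXCL5: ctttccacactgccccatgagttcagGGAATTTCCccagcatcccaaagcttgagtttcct
CXCL1: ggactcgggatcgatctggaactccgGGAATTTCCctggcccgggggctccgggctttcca
CXCL3: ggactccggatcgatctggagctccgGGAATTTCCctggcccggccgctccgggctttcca
CXCL2: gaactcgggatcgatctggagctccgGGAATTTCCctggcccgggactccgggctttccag

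The windows lie at chr4:73740452-73740512 (plus strand) for CXCL8, chr4:73836563-73836623 (plus) for CXCL6, chr4:73998733-73998793 (minus) for CXCL5, chr4:73869289-73869349 (plus) for CXCL1, chr4:74038733-74038793 (minus) for CXCL3 and chr4:74099238-74099298 (minus) for CXCL2. The capitals begin at -91, -89, -90, -78, -78 and -77 in that order, counted upstream from the RefSeq start. GGAATTTCC was searched in the 250 bases before the start on both strands, and 0.413% of all 35116 RefSeq promoters hold it. The windows were picked for sharing these 9 bases and some of the genes are near copies, so this share is no test of them. Of the 14 tested members 9 had a promoter entry, and the match was found in these 6 and not in those of CCL7, CCL26 and CXCL12. The looser form GGNNNTTCC, which includes GGAATTTCC and is held by 17.1% of promoters, had a further match, GGGCTTTCC, at -53 in CXCL1, CXCL2 and CXCL3. The form TTCNNNGAA of STAT sites, held by 6.57% of promoters, was found in CXCL5 and CXCL6, where it overlaps the capitals, and in CCL7. The AP-1 form TGANTCA, also held by 6.57%, was found in CXCL8 and CCL7, and TGACNNNGC, the core of the element that NRF2 binds (10.9% of promoters), was found in none of the 9. These matches describe letters in these windows and not binding.

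By their letters the windows form groups. Those of CXCL5 and CXCL6 were equal at 60 of 61 bases and those of CXCL1 and CXCL3 at 57 of 61, while those of CXCL3 and CXCL5 were equal at 29 of 61. The coding sequences grouped likewise. CXCL2 and CXCL3 were 94.4% identical, CXCL1 and CXCL2 93.5%, CXCL1 and CXCL3 90.7% and CXCL5 and CXCL6 87.4%. The longest run of equal coding bases was 97 between CXCL2 and CXCL3 and 45 between CXCL5 and CXCL6. The estimated reads of these genes were whole, but reads that fall in such runs may have been assigned to either copy, so the separate levels of CXCL1, CXCL2 and CXCL3 are uncertain.

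CXCL6 (gene ID 6372) and CXCL5 (gene ID 6374) were the higher genes of the cluster. CXCL6 had 33, 31 and 31 reads in control and 46, 49 and 57 after KCl. Its groups were separate and it rose 1.67-fold (log2 fold change 0.74 ± 0.24, edgeR adjusted p = 0.0156). CXCL6 shares 94 exon bases with the pseudogene PPBPP1 on its own strand. CXCL5 had 87, 104 and 87 reads in control and 112, 110 and 138 in KCl, or 4.76 ± 0.454 and 6.45 ± 0.844 CPM. These groups were also separate, with KCl replicate 3 the highest library, and CXCL5 rose 1.35-fold (log2 fold change 0.44 ± 0.15, edgeR adjusted p = 0.0250). CXCL6 no longer passed when control replicate 2 was left out (edgeR adjusted p = 0.0531), nor without KCl replicate 3 (0.0752), with 0.00389 to 0.103 over all alternatives. CXCL5 no longer passed in edgeR when control replicate 1 was left out (adjusted p = 0.0894), nor without control replicate 3 (0.0631) or KCl replicate 3 (0.151), and by DESeq2 (adjusted p = 0.062), with 0.0234 to 0.291 over all alternatives.

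CXCL3 (gene ID 2921) was the lower gene of the cluster, with 107, 112 and 89 reads in control and 80, 75 and 66 after KCl. The groups were separate, at 5.27 ± 0.520 and 3.96 ± 0.373 CPM, and CXCL3 fell (log2 change -0.41 ± 0.16, edgeR adjusted p = 0.0461). Of the 8 calls this one was lost most often, in 8 of 15 alternative settings. CXCL3 no longer passed in edgeR with control replicate 1 left out (adjusted p = 0.114), control replicate 2 (0.152), KCl replicate 1 (0.0546), KCl replicate 2 (0.0772) or KCl replicate 3 (0.156), and by DESeq2 (adjusted p = 0.105), with 0.00484 to 0.383 over all alternatives. Limma on log2(TPM + 0.1) kept it (adjusted p = 0.00601).

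CXCL8, CXCL1 and CXCL2 were the more abundant genes of the cluster, and none passed. CXCL8, or interleukin 8 (gene ID 3576), was at 83.2, 67.9 and 80.5 CPM in control and 85.1, 70.7 and 70.9 after KCl, and its log2 change was -0.03 ± 0.08 (edgeR adjusted p = 0.810). CXCL1 (gene ID 2919) was at 42.8, 37.2 and 38.5 CPM in control and 49.5, 36.7 and 38.6 after KCl, and its log2 change was 0.07 ± 0.09 (edgeR adjusted p = 0.573). CXCL2 (gene ID 2920) was at 15.3, 14.3 and 18.1 CPM in control and 17.4, 14.2 and 13.5 after KCl, and its log2 change was -0.08 ± 0.11 (edgeR adjusted p = 0.591). For each of these genes the groups overlapped, and KCl replicate 1 was the highest KCl library. Their small differences changed sign in some settings.

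Within the cluster, the ratios of CXCL5 and CXCL6 to CXCL3 did not overlap between the groups, which follows from the separate groups of the single genes. CXCL5 over CXCL3 was 0.813, 0.929 and 0.978 in control and 1.40, 1.47 and 2.09 in KCl. CXCL6 over CXCL3 was 0.308, 0.277 and 0.348 in control and 0.575, 0.653 and 0.864 in KCl. CXCL1 over CXCL3 was also separate, at 7.54 ± 0.875 in control and 10.5 ± 1.28 in KCl, and so was CXCL5 over CXCL6, at 2.93 ± 0.375 and 2.37 ± 0.106. CXCL1 over CXCL2 overlapped, at 2.51 ± 0.351 and 2.76 ± 0.152. These 5 ratios of CPM were formed after the values were seen and carry no test.

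**Figure D3:**
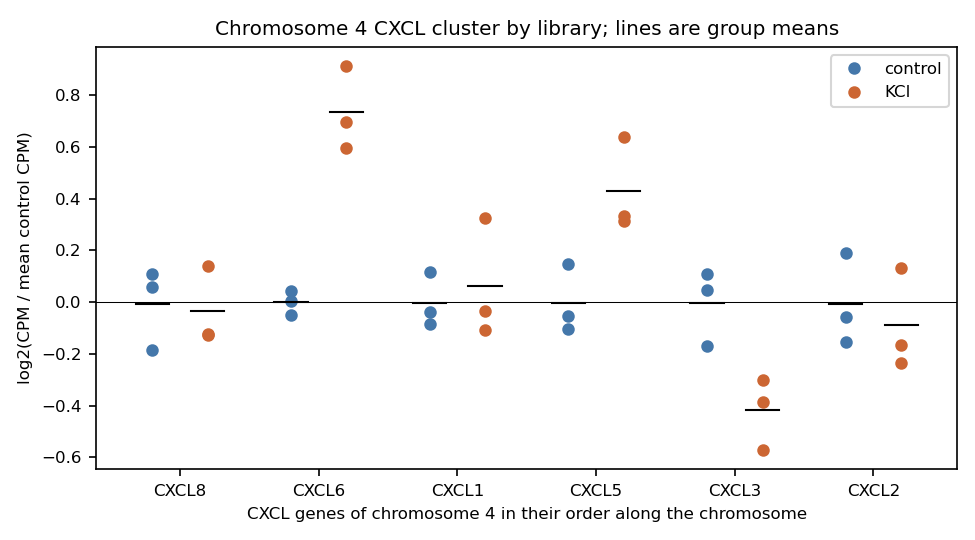
Log2 of CPM over the mean control CPM for the 6 CXCL genes of chromosome 4 in their order along the chromosome, with 1 point per library and a line at each group mean. KCl points of CXCL6 and CXCL5 lie above their control points, those of CXCL3 lie below, and those of CXCL8, CXCL1 and CXCL2 are mixed with control.

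On the length-scaled level (TPM) the order of the family was the same in both groups for the 5 most abundant genes, CXCL12, CCL2, CXCL8, CXCL1 and CXCL2, and neighbours among these did not overlap between libraries. CXCL8 was at 128.3 ± 13.4 TPM in control and 115.8 ± 7.48 TPM in KCl. In control CXCL5 overlapped CCR10, CCR10 overlapped CXCL16, and CCL7 overlapped CX3CL1. In KCl the overlapping neighbours were CCL26 and CCL5, CXCL6 and CCR10, and CCL7 and CXCL16. CX3CL1 was lowest of the 14 in both groups, at 1.19 ± 0.457 TPM in control and 0.693 ± 0.110 TPM in KCl.

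**Figure D4:**
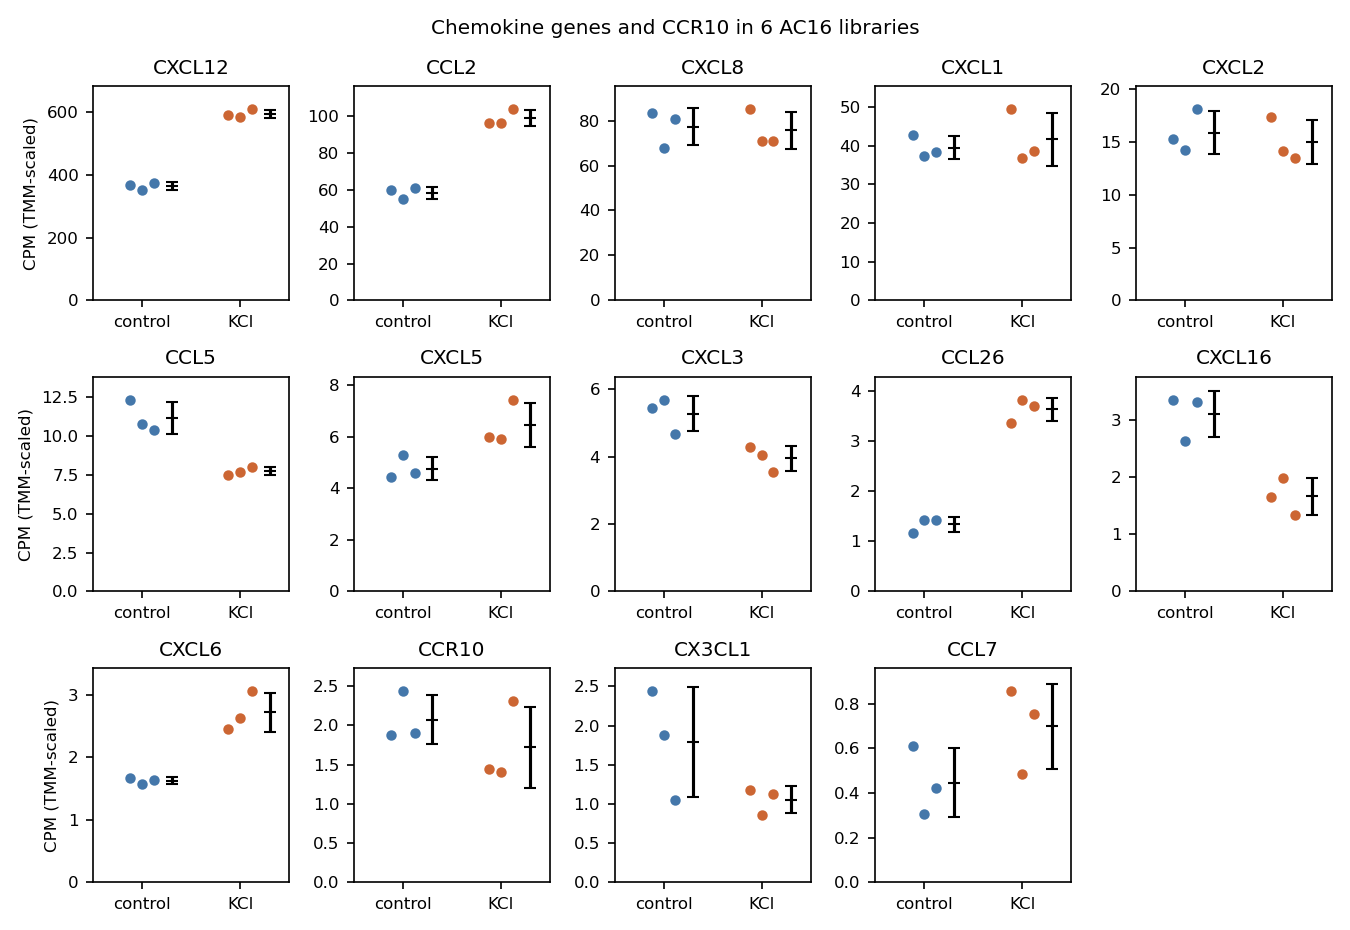
TMM-scaled CPM of the 14 tested members in each library (points) with the group mean and SD (bars, n = 3), blue for control and orange for KCl, each panel starting at 0. Groups are separate for CXCL12, CCL2, CCL5, CXCL5, CXCL3, CCL26, CXCL16 and CXCL6.

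Receptor transcripts were scarce. CCR10, the receptor of CCL27 and CCL28 that guides T cells to skin and mucosa, had 37, 48 and 36 reads in control and 27, 26 and 43 in KCl (gene ID 2826, chromosome 17, 42678889 to 42683917, minus strand). Its groups overlapped, and its log2 fold change of -0.27 ± 0.27 did not pass (edgeR adjusted p = 0.458). With 1 library left out it ran from -0.54 (without KCl replicate 3) to -0.14 (without control replicate 2). CCR10 shares 381 exon bases with CNTNAP1 and 439 with the antisense gene AC100793.2, both on the opposite strand. The libraries were strand-specific by label, but without stranded counting the reads of these genes could not be told apart. Its ligand genes were low too, with 1 to 3 reads per library for CCL27 and 1 to 8 for CCL28. The other 15 receptor genes had at most 8 reads each in a library, and together 15.7 to 24.0 reads in control and 10.9 to 19.6 in KCl.

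The ligand genes that changed had few reads from their signalling receptors. CXCR4, the receptor of CXCL12, had 0 to 4 reads per library. CCR2, which binds CCL2, had 7 reads over the control libraries and 2 over the KCl libraries. CCR3, which binds CCL26 and CCL5, had 0 and 2 reads. CXCR1 and CXCR2, the receptors of the chromosome 4 CXCL proteins, had at most 2 and 3 reads in a library. CXCR6 had 1 read over the 6 libraries and CX3CR1 had 6. Such numbers cannot show a change at this depth. ACKR3, an atypical receptor outside the symbol rule that takes up CXCL12 without G protein signalling, was higher than any of these, at 2.36 ± 0.167 CPM in control and 2.99 ± 0.504 after KCl, a log2 change of 0.34 ± 0.22 that missed the threshold (edgeR adjusted p = 0.238).

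Among the 23 ligand genes below a mean of 10 reads were the interferon-induced CXCR3 ligands. CXCL10 had 6, 7 and 2 reads in control and 3, 5 and 3 in KCl, CXCL11 had 16 reads over control and 13 over KCl, and CXCL9 had 4 and 2. CCL20, which attracts cells through CCR6, had 4, 3 and 2 reads in control and 1, 0 and 1 in KCl. CCL13, a monocyte and eosinophil attractant, had 9 reads over control and 19 over KCl. CCL3L1 and CCL3L3 are near-identical copies, so their few reads could belong to either. The low members were not tested after the filter. When every gene with at least 1 read was fitted, 0 of the 35 that had one passed (edgeR, with 0 at an unadjusted p under 0.05). In that fit 4994 of all 18618 genes passed. The SE of these 35 members ran from 0.74 to 2.21 log2 units, so all but very large changes would have been missed.

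Genes of the surrounding pathways were taken from lists and are described by their counts. Of 31 tested genes of NF-kB and its inducing cytokines, 12 were higher and 3 lower, and their median log2 change was 0.11. These were 38.7% and 9.68% of the list, against 20.1% and 18.0% of all tested genes. The interleukin 1 receptor gene IL1R1 rose from 55.3 ± 2.08 to 85.7 ± 3.91 CPM (log2 fold change 0.63 ± 0.05, edgeR adjusted p = 1.3e-09). TLR4, the endotoxin receptor gene, rose from 5.13 ± 0.308 to 11.9 ± 2.20 CPM (1.22 ± 0.14), and the transcription factor gene CEBPD rose by 0.46 ± 0.06. The genes of the NF-kB subunits, named after their values were seen, went in different directions. NFKB1 was lower (-0.44 ± 0.06, edgeR adjusted p = 2.47e-06) and so was RELB (-0.26 ± 0.06, edgeR adjusted p = 0.00214). RELA was higher (0.14 ± 0.05, edgeR adjusted p = 0.0219), and NFKB2 and REL did not pass. Of 13 tested genes of interferon signalling 5 were higher and 0 lower (median 0.08, 1 lower at an unadjusted p under 0.05 in edgeR and 0 by DESeq2), or 38.5% higher against 20.1% of all tested genes, with IFNGR2 at 0.29, JAK1 at 0.27 and IRF3 at 0.21, all of which passed.

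Of 23 tested genes that couple chemokine receptors to the cell interior, 6 were higher and 3 lower (median 0.07). Their shares of 26.1% and 13.0% were near those of all tested genes, 20.1% and 18.0%. RGS4, which shortens G protein signals, rose by 0.36 ± 0.04 and the phospholipase gene PLCB3 by 0.33 ± 0.05, while the arrestin gene ARRB2 was lower (-0.21 ± 0.04). Of 17 tested genes for heparan sulfate proteoglycans and proteases that bind or trim chemokines, 7 were higher and 5 lower (median 0.01), or 41.2% and 29.4% against the same 20.1% and 18.0%. The heparan sulfate polymerase gene EXT1 rose by 0.36 ± 0.04 and the syndecan gene SDC2 by 0.45 ± 0.06, while SDC1 was lower (-0.38 ± 0.05). Of 8 tested factors that control the decay of chemokine and cytokine messengers, 3 were higher and 2 lower (median 0.01), or 37.5% and 25% against 20.1% and 18.0% of all tested genes, with the endonuclease gene ZC3H12A at 0.40 ± 0.10 and the lower genes TIA1 at -0.39 ± 0.08 and HNRNPD at -0.19 ± 0.04. The 4 tested genes listed as related but outside the symbol rule were ACKR3, ACKR4, CKLF and MIF. They gave 0 calls (edgeR, 0 at an unadjusted p under 0.05 and 0 by DESeq2), where 38.0% of all tested genes passed in edgeR.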

How the data were processed

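Per the labels' protocols, RNA from AC16 cells was made into strand-specific mRNA libraries for DNBSEQ, and the libraries were prepared and sequenced by a company. Per the submitters' processing notes GRCh38.p12 was used. Which aligner and counter were run is not given in the sources used here. Deposited by the authors were estimated counts per gene without normalization, with TPM and FPKM scaled by gene length and library size, and their group means. In 27 symbols that had become dates the gene names were restored. The names of these means tied each column code to its treatment.

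Estimated counts were rounded and fitted over all genes with edgeR 4.0.16 in R 4.3.3 (TMM, filterByExpr with a minimum count of 10 and a minimum total of 15, robust two-sided quasi-likelihood test, no block), and p-values were adjusted by Benjamini-Hochberg over the 13044 genes tested. DESeq2 1.42.0, limma 3.58.1, another scaling, other filters, a replicate block, a 1.2-fold threshold and leaving out each library were alternatives. The code was tested on simulated data. The SE is the log2 fold change divided by the square root of F. Gene positions came from GENCODE release 29 (GRCh38) through the gene ID. Named pathway genes are, per list, up to 3 that passed, taken by ascending p. The members and lists were chosen with earlier results of these data known. Replicate pairs differed by more than sampling noise (chi-square per gene 3.04 to 4.48). The labels do not say whether libraries came from separate cultures, so p-values measure the spread between libraries, which may be technical. The limit of 3 reads covers counting error only, whereas the SD and SE include the spread between libraries.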

Additional observations from a re-analysis of the deposited data

How the results depend on the processing

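Over 15 alternatives, CXCL12, CCL2, CCL26, CCL5 and CXCL16 kept their direction and their call, and the lost calls were those of CXCL3 (8 alternatives), CXCL5 (5) and CXCL6 (3). Against a fold change of 1.2 (glmTreat) 1091 genes were called in place of 4963, and the members gave 3 higher and 2 lower calls. DESeq2 gave 4 higher and 2 lower. Leaving out 1 library at a time gave 4093 to 4560 genes called, 3 to 5 members higher and 2 to 4 lower. The 3 higher were those without KCl replicate 3. Among the genes not called, CXCL1 was at -0.0045 on log2(FPKM + 1). With 1 library left out, the log2 change of CXCL1 ran from -0.069 (without KCl replicate 1) to 0.16, that of CXCL2 from -0.20 to 0.021 (without control replicate 3) and that of CXCL8 from -0.12 to 0.025 (above 0 without control replicate 1, KCl replicate 2 or KCl replicate 3). The pseudocount of 1 on FPKM shrank low genes, with CXCL16 at -0.45, CXCL6 at 0.38 and CXCL5 at 0.26. With the replicate number as a block 5140 genes were called, with 5 members higher and 3 lower. Same-numbered deviations correlated at -0.0039, -0.0060 and 0.048, and control replicate 2 correlated best with KCl replicate 1 (0.0679). These values gave no clear sign that the numbers pair the libraries, but they cannot exclude it. Depth limits all members under about 50 reads, whose SE on the log2 scale was 0.23 to 0.44.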
